A study of Homo sapiens with 12 samples.

Results

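The genes of the KDM1A and CoREST corepressor complex were followed across prostate cancer cells treated with inhibitors of histone demethylases. The genes were taken by name: KDM1A itself, its paralog KDM1B, the scaffolds RCOR1, RCOR2 and RCOR3, the deacetylases HDAC1 and HDAC2, and the associated factors PHF21A, HMG20B and ZMYM2. All 10 were found among the 60675 genes counted, and all 10 passed the filter on low counts in every fit. RNA came from 12 libraries in 6 groups of 2, described in the study's methods as biological replicates. C4-2 cells, a castration-resistant derivative of the LNCaP prostate cancer line, were given the synthetic androgen R1881 (1 nM) alone with vehicle, R1881 with the KDM1A inhibitor namoline (50 µM), R1881 with the KDM7A inhibitor TCE-5002, or R1881 with both (combination). Cells labelled LNCaP, the androgen-dependent parent line, were given R1881 alone or with the combination. Every group, controls included, therefore carried R1881, and treatment lasted 72 h in medium with charcoal-stripped serum. The dose of TCE-5002 is 100 µM in the series description and 50 µM in the study's methods, and which of them these libraries received is not settled. According to the study, TCE-5002 is selective for KDM7A but also targets KDM7B (PHF8) and KDM2A. Which target a change with TCE-5002 came from was not tested.

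KDM1A (also LSD1) is a flavin-dependent enzyme that removes methyl groups from mono- and dimethylated lysine 4 of histone H3, and in prostate cells it also acts as a coregulator of androgen-driven transcription. In the CoREST complex an RCOR protein holds KDM1A and either HDAC1 or HDAC2 together, so that deacetylation and demethylation of the same nucleosome are coupled and the target gene is silenced. Namoline blocks the enzyme. The sections that follow report transcript levels of the complex, and no protein level or enzyme activity was measured in these files.

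On the GRCh38 build KDM1A spans chr1:23019448-23083689, HDAC1 chr1:32292086-32333635 and RCOR3 chr1:211258377-211316385, all on the plus strand. KDM1B spans chr6:18155329-18223853 on the plus strand and HDAC2 chr6:113933028-114011308 on the minus strand. RCOR2 (chr11:63911221-63916844) and PHF21A (chr11:45929323-46121178) are both on the minus strand. RCOR1 (chr14:102592661-102730576), HMG20B (chr19:3572777-3579088) and ZMYM2 (chr13:19958670-20091829) are on the plus strand. Each value counts fragments over all annotated exons of the gene, coding and untranslated, with no strand option. HMG20B shares 369 exonic bases (9.57% of its length) with MFSD12 on the opposite strand, and HDAC2 shares 69 with the antisense gene HDAC2-AS2. By default such fragments are left uncounted when both genes match. Fragments of HDAC1 that also match its processed copies HDAC1P1 and HDAC1P2 could be lost in the same way, and those copies held 0 to 3 counts per library.

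Sequence upstream of the start was read from RefSeq (GRCh38.p14) for 9 of the 10 genes, and no entry was matched for RCOR2. The 250 bases before the start are shown for the paralogs KDM1A and KDM1B, whose ratio moved with treatment, and for HMG20B and ZMYM2, the largest faller and riser of the 10 with the combination in C4-2. For ZMYM2 this is 1 of 3 listed starts. The RefSeq starts of KDM1A, KDM1B, HMG20B and ZMYM2 lay 20, 93, 167 and 57 bases inside the gene spans given above, so each window overlaps its span. Capitals mark GC boxes (GGGCGG or CCGCCC) and CCAAT boxes (CCAAT or ATTGG).
KDM1A (chr1:23019218-23019467, plus strand): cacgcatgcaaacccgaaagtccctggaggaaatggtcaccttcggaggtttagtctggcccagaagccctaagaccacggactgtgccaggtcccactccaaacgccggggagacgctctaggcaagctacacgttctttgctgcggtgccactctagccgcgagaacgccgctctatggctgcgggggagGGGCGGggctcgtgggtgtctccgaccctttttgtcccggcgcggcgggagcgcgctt
KDM1B (chr6:18155172-18155421, plus strand): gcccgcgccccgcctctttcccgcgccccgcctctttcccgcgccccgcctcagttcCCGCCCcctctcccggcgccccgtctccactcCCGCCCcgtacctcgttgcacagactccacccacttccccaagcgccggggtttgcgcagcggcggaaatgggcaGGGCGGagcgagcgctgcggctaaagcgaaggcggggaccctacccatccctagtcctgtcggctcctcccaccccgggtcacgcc
HMG20B (chr19:3572694-3572943, plus strand): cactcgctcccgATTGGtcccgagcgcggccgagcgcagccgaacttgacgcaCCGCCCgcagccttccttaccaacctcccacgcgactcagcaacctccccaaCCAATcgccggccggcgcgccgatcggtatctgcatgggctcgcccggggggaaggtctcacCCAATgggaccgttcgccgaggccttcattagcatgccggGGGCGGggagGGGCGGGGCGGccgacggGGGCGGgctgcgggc
ZMYM2 (chr13:19958477-19958726, plus strand): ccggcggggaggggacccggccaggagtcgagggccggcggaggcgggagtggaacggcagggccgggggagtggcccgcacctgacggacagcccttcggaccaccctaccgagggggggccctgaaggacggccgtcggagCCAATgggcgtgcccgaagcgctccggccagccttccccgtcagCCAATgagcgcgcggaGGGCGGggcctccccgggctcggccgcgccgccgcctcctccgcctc
The window of HMG20B held 5 GC boxes, a pair of them sharing a base, and 3 CCAAT boxes, while that of ZMYM2 held 1 GC box and 2 CCAAT boxes. KDM1A had 1 GC box and KDM1B had 3, and neither held a CCAAT box. Among the 9 windows, 8 held a GC box, against 42.6% of 35116 RefSeq windows of the same length, and 4 held a CCAAT box, against 32.0%. The 35116 windows cover every listed start and were not matched for GC. Each of the 9 genes gave 1 window, with a GC content of 63.2% to 84.0%. The window without a GC box was that of HDAC2, whose RefSeq start lay 40160 bases from the start of the gene span used here. For RCOR3 that distance was 989 bases. None of the 9 held TATAAA or its reverse complement, which 10.7% of all windows held, and none held CCGGAAG or its reverse complement, which 8.52% held. These are matches of letters, and no binding was measured.

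Library totals ran from 14791602 to 20690819 counts, and replicates differed by more than counting noise (chi-square per gene 4.69 to 40.9, with the C4-2 TCE-5002 pair farthest apart). The difference between 2 replicates moved with the GC content of the transcripts (Spearman rho over genes, which are not independent, from -0.778 in the C4-2 TCE-5002 pair to 0.621 in the combination pair labelled LNCaP). The libraries labelled LNCaP went against that label: vimentin (VIM) was at 610 to 736 CPM against 1.18 to 4.79 in C4-2, the 5 mesenchymal markers summed to 722 to 870 CPM against 15.5 to 45.8, and the 9 luminal markers summed to 358 to 864 CPM against 2306 to 5434. The epithelial markers CDH1 and EPCAM were at 33.9 to 45.3 and 1.88 to 4.07 CPM there, while KLK3 was present at 88.0 to 404 CPM. They are called the libraries labelled LNCaP throughout, and line and identity cannot be told apart in any comparison between them and C4-2. The header of their combination replicate 1 names namoline but not TCE-5002, so the combination results of the 10 genes in these cells are also given without that library. The 9 luminal markers also moved with treatment within C4-2 (summed 3738 to 3854 CPM with R1881, 3835 to 4093 with namoline, 5313 to 5434 with TCE-5002, 2306 to 2359 with the combination), and the libraries labelled LNCaP held 792 to 864 CPM with R1881 and 358 to 453 with the combination. The 5 mesenchymal markers summed to 30.1 to 30.2 CPM in C4-2 with R1881, 41.1 to 45.8 with namoline, 25.4 to 27.1 with TCE-5002 and 15.5 to 16.4 with the combination, at most 2 of them at 0 in both libraries of a group. The part of these differences in the changes below was not tested. In bulk RNA, fewer cells of a type and less RNA per cell cannot be told apart.

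**Figure D1:**
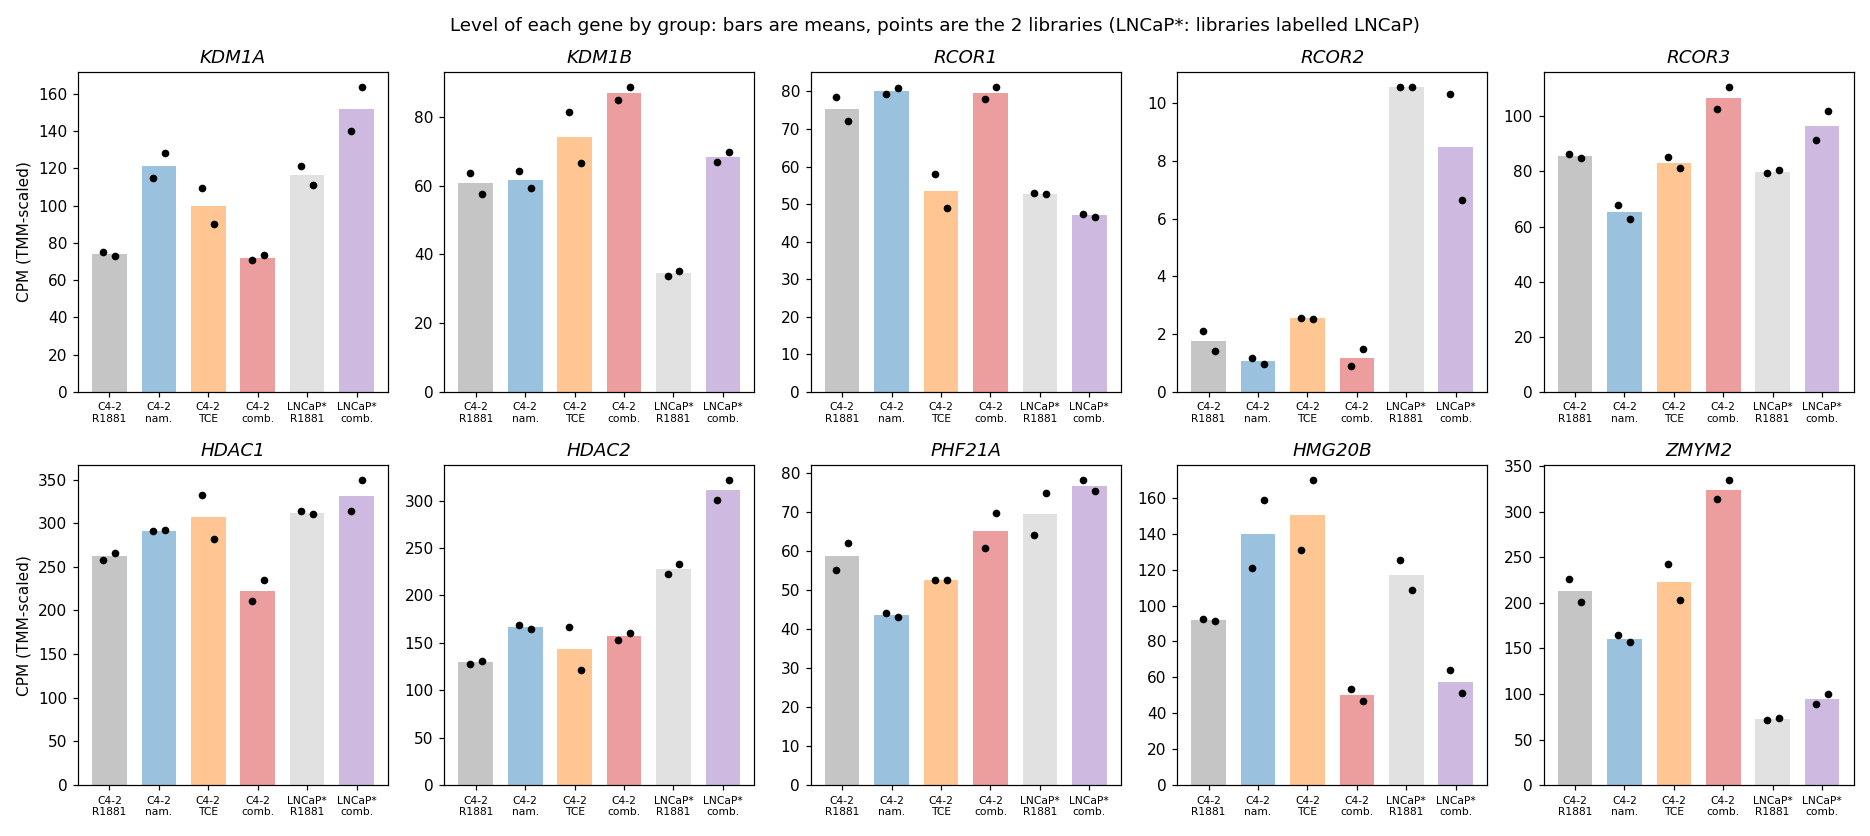
Level of each of the 10 genes in CPM scaled by TMM (y axes, linear, starting at 0) in the 6 groups (x axes), where bars are means and points the 2 libraries of a group. KDM1A stands at 115 and 128 CPM with namoline and at 70.7 and 73.4 with the combination in C4-2, and HMG20B falls to 53.7 and 46.8 while ZMYM2 reaches 314 and 335.

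In C4-2 cells with R1881 alone, HDAC1 was the most abundant of the 10 transcripts per length, at 66.2 ± 1.5 CPM per kb of exon (SD, n = 2). HMG20B followed at 23.9 ± 0.242 CPM per kb and ZMYM2 at 15.7 ± 1.31. KDM1A (13.6 ± 0.258 CPM per kb), KDM1B (13.2 ± 0.928) and RCOR1 (12.1 ± 0.748) lay close together, KDM1A and KDM1B with overlapping values. RCOR3 (9.41 ± 0.103), HDAC2 (8.39 ± 0.149) and PHF21A (5.25 ± 0.435) were lower. The exon length used for HDAC2 (15461 bases) is the longest of the 10 and lowers its level per kb. RCOR2 was nearly silent, at 0.641 ± 0.180 CPM per kb, which rests on 45 and 22 counts.

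Expression was first compared between each treatment and R1881 alone in C4-2, over 17702 genes tested together with edgeR's quasi-likelihood test and Benjamini-Hochberg adjustment. A gene is called here when its adjusted p was under 0.05. Namoline alone changed 5 of the 10 genes (KDM1A and HMG20B higher, RCOR3, PHF21A and ZMYM2 lower), where 35% of all genes tested were called (18.7% higher, 16.3% lower). TCE-5002 alone changed 3 (KDM1A and HMG20B higher, RCOR1 lower), where 36.5% of all genes were called (19.9% higher, 16.7% lower). The combination changed 4 (KDM1B, RCOR3 and ZMYM2 higher, HMG20B lower), where 50.3% of all genes were called (24.8% higher, 25.6% lower). These shares are close to the background of each treatment. None of the 10 changed at least 2-fold in any of the 3, against 12.1%, 11.8% and 21.7% of all genes. The median log2 fold change of the 10 was 0.04, 0.16 and 0.10, against medians over all genes of -0.0043, -0.0001 and -0.034. With 2 libraries per group these counts depended on single libraries, in both directions. Leaving out either TCE-5002 library raised the namoline and combination counts, among the 10 and over all genes. Those libraries are in neither contrast but share the estimate of the spread in the C4-2 fit. For namoline, 2 genes were called without R1881 replicate 1, 3 without R1881 replicate 2 and 1 without namoline replicate 2, while calls over all genes went from 6195 to 3270, 4133 and 3338. For TCE-5002, 1 gene was called without R1881 replicate 1 and 6 without TCE-5002 replicate 2 (over all genes 3397 and 7295, from 6464), and for the combination 2 were called without R1881 replicate 2 (over all genes 6685, from 8909).

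**Figure D2:**
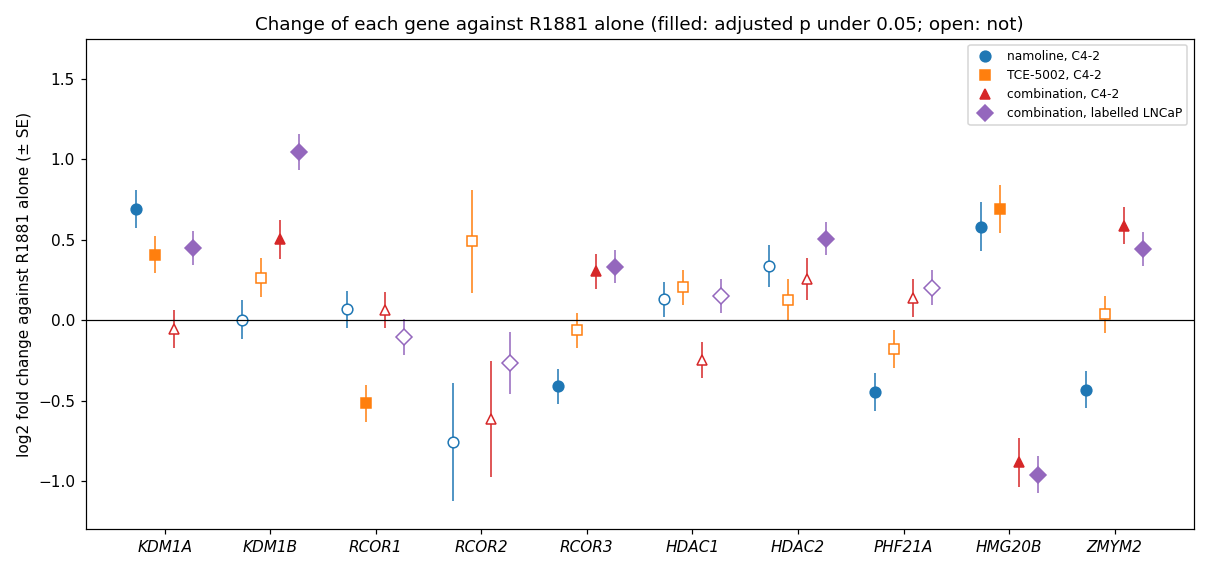
Log2 fold change against R1881 alone (y axis; bars are standard errors) of each gene (x axis), shown for the 3 treatments of C4-2 and for the combination-treated cells labelled LNCaP, where filled symbols have an adjusted p under 0.05. KDM1A is higher with either inhibitor in C4-2 (0.69 and 0.41) but not with both (-0.05), and HMG20B is higher with either (0.58 and 0.69) and lower with both (-0.88).

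KDM1A, the target of namoline, was measured at 75.0 and 73.1 CPM in C4-2 with R1881 alone, at 115 and 128 with namoline, at 109 and 90.0 with TCE-5002 and at 70.7 and 73.4 with the combination. Both single-inhibitor groups lay above R1881 alone without overlap, and the combination overlapped it. Namoline raised KDM1A by 0.69 on the log2 scale (SE 0.12, adjusted p = 0.000392), and this call held in all 15 alternative fits. TCE-5002 raised it by 0.41 (SE 0.12, adjusted p = 0.0134), a call that was lost without R1881 replicate 1 (adjusted p = 0.0926) without R1881 replicate 2 (adjusted p = 0.103) and when only the 4 libraries compared were fitted (adjusted p = 0.0607), and the value was 0.27 without TCE-5002 replicate 1 (adjusted p = 0.0328). With the combination the difference was -0.05 (SE 0.12, adjusted p = 0.732). Set against each single inhibitor directly, the combination had lower KDM1A than namoline (-0.74, SE 0.12, adjusted p = 8.14e-05) and than TCE-5002 (-0.46, SE 0.12, adjusted p = 0.00381). The interaction asks whether the combination differs from the sum of the single changes on the log2 scale. For KDM1A it was -1.15 (SE 0.17, adjusted p = 3.79e-05), with values from -1.29 to -0.99 when any 1 library was left out.

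KDM1B (LSD2) is the paralog of KDM1A, a demethylase of the same histone mark that acts in gene bodies with GLYR1 and outside the CoREST complex. Its levels were 63.7 and 57.6 CPM with R1881 alone, 64.1 and 59.4 with namoline, 81.4 and 66.6 with TCE-5002 and 85.0 and 88.7 with the combination. Only the combination gave a call, a rise of 0.50 (SE 0.12, adjusted p = 0.00321), which was lost without R1881 replicate 2 (0.43, adjusted p = 0.0589). KDM1B did not pass the test with namoline (0.00, adjusted p = 0.983) or with TCE-5002 (0.26, adjusted p = 0.102), though without TCE-5002 replicate 2 the latter was called (0.40, adjusted p = 0.00342). Against namoline the combination was higher by 0.50 (SE 0.12, adjusted p = 0.00281), and against TCE-5002 by 0.24 (adjusted p = 0.107; called at 0.39, adjusted p = 0.00344, without TCE-5002 replicate 1). Its interaction of 0.23 did not pass the test (adjusted p = 0.266) but did so at 0.40 without TCE-5002 replicate 1 (adjusted p = 0.0143). GLYR1, the cofactor of KDM1B, was at 151 and 158 CPM with R1881 alone and at 113 and 119 with the combination, a log2 change of -0.43 (SE 0.10, adjusted p = 0.00324), and was not called with namoline (0.20, adjusted p = 0.147). GLYR1 rose with both inhibitors in the cells labelled LNCaP, from 86.0 and 84.3 to 112 and 120 CPM (0.50, SE 0.10, adjusted p = 9.65e-05), and the difference between the cells was -0.98 (SE 0.12, adjusted p = 2.24e-07).

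The balance between the paralogs therefore moved over a wide range. Within each library, the ratio of KDM1A to KDM1B per kb of exon was 0.996 and 1.07 with R1881 alone, 1.51 and 1.83 with namoline, 1.14 and 1.14 with TCE-5002 and 0.70 and 0.70 with the combination. The order from namoline through TCE-5002 and R1881 alone to the combination held without overlap between neighbouring groups. These ratios are descriptions and were not tested.

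**Figure D3:**
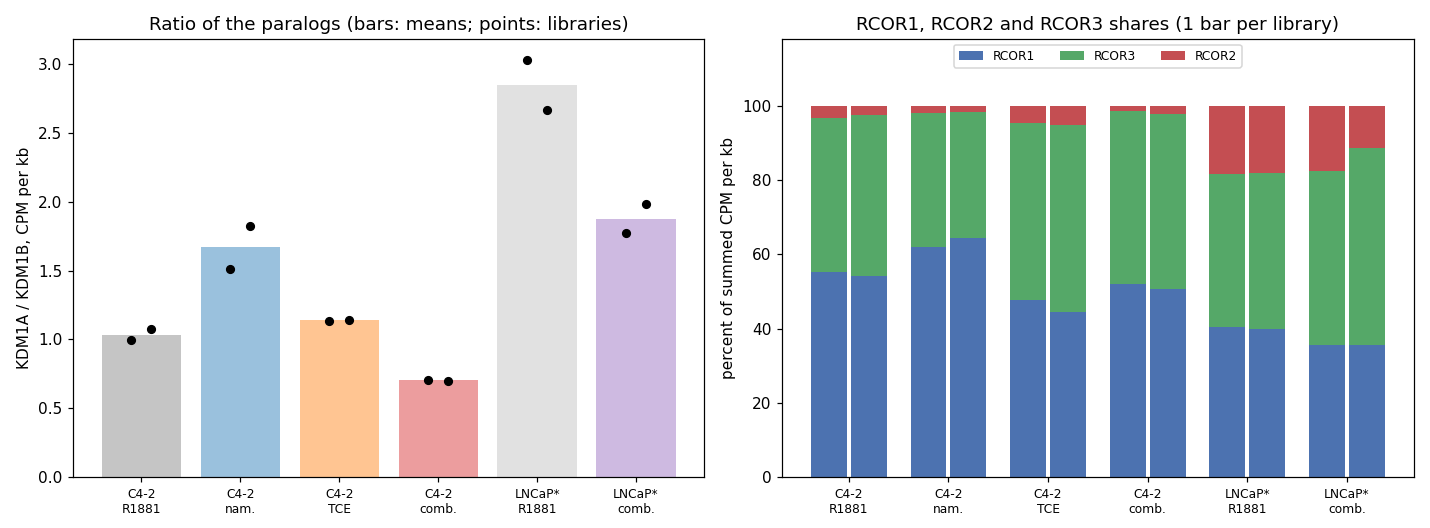
Left, ratio of KDM1A to KDM1B in CPM per kb of exon (y axis) by group, where bars are means and points libraries. Right, RCOR1, RCOR2 and RCOR3 as percent of their summed CPM per kb (y axis), 1 bar per library; the ratio is lowest with the combination in C4-2 (0.70 and 0.70), and RCOR2 reaches 18.3% and 18.2% with R1881 in the libraries labelled LNCaP.

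The RCOR scaffolds bridge KDM1A to the deacetylases and stabilise it on nucleosomes, and a complex holds 1 of the 3. RCOR1 was lower with TCE-5002 and not with namoline. Its levels were 78.6 and 72.0 CPM with R1881 alone, 58.0 and 49.1 with TCE-5002, 79.3 and 81.0 with namoline and 78.0 and 81.1 with the combination. RCOR1 fell by 0.51 with TCE-5002 (SE 0.12, adjusted p = 0.00303; adjusted p = 0.0644 without R1881 replicate 1), and the combination stood above TCE-5002 by 0.58 (SE 0.12, adjusted p = 0.000622). The combination libraries overlapped those of R1881 alone and of namoline, and neither namoline (0.07, adjusted p = 0.683) nor the combination (0.07, adjusted p = 0.658) was called. An interaction of 0.51 (SE 0.16, adjusted p = 0.0151) was lost without R1881 replicate 1 (adjusted p = 0.106) or without any 1 library of the namoline or combination groups (adjusted p = 0.0543 to 0.0639).

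RCOR3, a paralog of RCOR1, moved down with namoline and up with the combination. It was at 86.2 and 84.9 CPM with R1881 alone, 67.9 and 62.8 with namoline, 85.1 and 81.2 with TCE-5002 and 103 and 111 with the combination. The changes were -0.41 with namoline (SE 0.11, adjusted p = 0.0087) and 0.30 with the combination (SE 0.11, adjusted p = 0.0276). The namoline call was lost without R1881 replicate 1 (adjusted p = 0.0917), R1881 replicate 2 (0.0693) or namoline replicate 2 (0.109), and the combination call without any 1 of the 6 libraries of the R1881, namoline and combination groups (adjusted p = 0.0509 to 0.190). The direct contrast was firmer: the combination was above namoline by 0.71 (SE 0.11, adjusted p = 5.8e-05), and above TCE-5002 by 0.37 (SE 0.11, adjusted p = 0.00923; adjusted p = 0.105 without combination replicate 2). Its interaction was 0.78 (SE 0.15, adjusted p = 0.000576).

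RCOR2, a scaffold known from neural and pluripotent cells, stayed between 0.886 and 2.57 CPM (16 to 49 counts) in the 8 C4-2 libraries. None of its changes against R1881 alone passed the test: -0.76 with namoline (SE 0.37, adjusted p = 0.124), 0.49 with TCE-5002 (SE 0.32, adjusted p = 0.254) and -0.61 with the combination (SE 0.36, adjusted p = 0.172). The combination was below TCE-5002 (-1.10, SE 0.35, adjusted p = 0.0141), a call that rested on combination replicate 1 (-0.78, adjusted p = 0.151 without it). Per kb of exon RCOR1 made up 55.3% and 54.1% of the summed scaffold transcripts with R1881 alone, 61.8% and 64.3% with namoline, 47.6% and 44.6% with TCE-5002 and 52.0% and 50.7% with the combination, and nearly all of the rest was RCOR3. The summed level itself was lowest with TCE-5002 (19.7 and 17.8 CPM per kb) and highest with the combination (24.2 and 25.8). KDM1A per unit of summed scaffold was 0.602 and 0.626 with R1881 alone, 1.02 and 1.16 with namoline, 1.03 and 0.933 with TCE-5002 and 0.538 and 0.524 with the combination.

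HDAC1 and HDAC2 are the catalytic deacetylases that CoREST shares with the NuRD and SIN3 complexes. HDAC1 stood at 258 and 266 CPM with R1881 alone, 291 and 292 with namoline, 332 and 282 with TCE-5002 and 211 and 235 with the combination. Although the groups did not overlap R1881 alone, none of these changes passed the test (0.13, 0.20 and -0.25, adjusted p = 0.389, 0.165 and 0.075). When only the 4 libraries compared were fitted, the combination change was called (-0.25, adjusted p = 0.00184). HDAC1 was called with TCE-5002 without TCE-5002 replicate 2 (0.32, adjusted p = 0.00944), and with the combination without TCE-5002 replicate 1 (adjusted p = 0.00815) or replicate 2 (adjusted p = 0.00892). In direct contrasts the combination was lower than namoline (-0.38, SE 0.11, adjusted p = 0.00932) and than TCE-5002 (-0.45, SE 0.11, adjusted p = 0.00299). The first of these was lost without any 1 of the namoline or combination libraries (adjusted p = 0.0586 to 0.117) and the second without combination replicate 1 (adjusted p = 0.0577). Its interaction was -0.58 (SE 0.16, adjusted p = 0.00578).

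HDAC2 lay above R1881 alone in both groups that had namoline, without passing the test when all 8 C4-2 libraries were fitted. It was at 128 and 131 CPM with R1881 alone, 168 and 164 with namoline, 166 and 121 with TCE-5002 and 153 and 161 with the combination. The TCE-5002 libraries lay on both sides of R1881 alone and were the farthest apart of any HDAC2 pair in C4-2. The changes were 0.34 with namoline (SE 0.13, adjusted p = 0.0561), 0.12 with TCE-5002 (SE 0.13, adjusted p = 0.486) and 0.26 with the combination (SE 0.13, adjusted p = 0.11). When only the 4 libraries compared were fitted, HDAC2 was called with namoline (0.33, adjusted p = 0.00358) and with the combination (0.25, adjusted p = 0.0017). Without TCE-5002 replicate 1 the namoline and combination changes were called (adjusted p = 0.00148 and 0.00522), as they were without replicate 2 (adjusted p = 0.000736 and 0.00583). Without TCE-5002 replicate 2 the TCE-5002 change (0.34, adjusted p = 0.00558) and the interaction (-0.42, adjusted p = 0.00439) were called as well, and without replicate 1 the combination was above TCE-5002 (0.38, adjusted p = 0.0016). With all 8 libraries the interaction was -0.20 (adjusted p = 0.37). HDAC1 counts per HDAC2 count were 2.02 and 2.03 with R1881 alone, 1.73 and 1.78 with namoline, 2.00 and 2.33 with TCE-5002 and 1.38 and 1.46 with the combination, so the combination had the lowest ratio in C4-2.

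Of the associated factors, HMG20B showed the widest swing of the 10 genes. HMG20B (BRAF35) is a high mobility group box protein that binds DNA and is needed for CoREST repression. It was at 92.7 and 91.4 CPM with R1881 alone, 121 and 159 with namoline, 131 and 170 with TCE-5002 and 53.7 and 46.8 with the combination. Every single-inhibitor library was above R1881 alone and both combination libraries were below it. HMG20B rose by 0.58 with namoline (SE 0.15, adjusted p = 0.00768) and by 0.69 with TCE-5002 (SE 0.15, adjusted p = 0.00251), and fell by 0.88 with the combination (SE 0.15, adjusted p = 0.000279). The namoline call was lost without R1881 replicate 1 (adjusted p = 0.0537) or namoline replicate 2 (0.37, adjusted p = 0.165). Against namoline the combination was lower (-1.47, SE 0.15, adjusted p = 1.96e-06), as it was against TCE-5002 (-1.57, SE 0.15, adjusted p = 1.1e-06). The interaction of -2.16 (SE 0.22, adjusted p = 1.26e-06) was the largest in size of the 10, and ran from -2.32 to -1.95 when any 1 library was left out. MFSD12, which shares exonic bases with HMG20B on the other strand, was at 39.4 and 45.2 CPM with R1881 alone, 61.3 and 78.7 with namoline, 49.1 and 77.9 with TCE-5002 and 27.8 and 27.6 with the combination. Its part in the HMG20B values was not tested.

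ZMYM2 (ZNF198), a zinc finger protein that binds SUMO and joins KDM1A complexes on chromatin, went the other way. Its levels were 226 and 201 CPM with R1881 alone, 165 and 157 with namoline, 242 and 203 with TCE-5002 and 314 and 335 with the combination. The TCE-5002 libraries overlapped R1881 alone, the namoline libraries lay below it and the combination libraries above all others. ZMYM2 fell by 0.43 with namoline (SE 0.12, adjusted p = 0.00964; adjusted p = 0.158 without R1881 replicate 1 and 0.0961 without namoline replicate 2) and rose by 0.59 with the combination (SE 0.12, adjusted p = 0.000687). The combination was above namoline by 1.02 (SE 0.12, adjusted p = 4.05e-06) and above TCE-5002 by 0.55 (SE 0.12, adjusted p = 0.000929), and the interaction was 0.98 (SE 0.16, adjusted p = 0.000143). HMG20B counts per ZMYM2 count were 0.410 and 0.454 with R1881 alone, 0.736 and 1.01 with namoline, 0.541 and 0.835 with TCE-5002 and 0.171 and 0.140 with the combination.

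PHF21A (BHC80), the subunit whose PHD finger reads unmethylated lysine 4 of histone H3, was called lower with namoline. It was at 55.3 and 62.2 CPM with R1881 alone, 44.3 and 43.1 with namoline, 52.5 and 52.6 with TCE-5002 and 60.8 and 69.9 with the combination. It fell by 0.45 with namoline (SE 0.12, adjusted p = 0.00936; adjusted p = 0.139 without R1881 replicate 2 and 0.0793 without namoline replicate 2). It was not called with TCE-5002 (-0.18, adjusted p = 0.255) or with the combination (0.14, adjusted p = 0.338). The combination was above namoline by 0.59 (SE 0.12, adjusted p = 0.00072). It was above TCE-5002 by 0.32 (SE 0.12, adjusted p = 0.0319), a call lost without any 1 of the 6 libraries of the R1881, namoline and combination groups (adjusted p = 0.0594 to 0.268). The interaction was 0.77 (SE 0.17, adjusted p = 0.00138).

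Counted over the 10 genes, the combination differed from namoline in 7 (4 higher, 3 lower), where 55.9% of all genes were called (26.9% higher, 29% lower), and from TCE-5002 in 8 (4 higher, 4 lower), where 55.1% were called (26.4% higher, 28.7% lower). The latter count was 5 without combination replicate 1, where calls over all genes went from 9749 to 7777. At least 2-fold changes numbered 2 in each (HMG20B and ZMYM2 against namoline, HMG20B and RCOR2 against TCE-5002), against 27.5% and 26.1% of all genes, and each count was 1 without namoline replicate 2 and without combination replicate 1, respectively. The interaction was called for 7 genes (KDM1A, HDAC1 and HMG20B below the sum of the single changes, RCOR1, RCOR3, PHF21A and ZMYM2 above it), where 53.5% of all genes were called (25.6% higher, 27.9% lower). Past 2-fold were 2 (KDM1A and HMG20B), against 35.3% of all genes. The comparisons share libraries and are not independent of each other.

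Because replicates differed with GC content, every change of the 10 genes was also fitted with a GC correction. For the other genes tested by name only the main fit is reported, with no GC correction and no library left out. HMG20B has the highest transcript GC of the 10 (65.7%) and its values moved under it. Its rises became 0.29 with namoline (adjusted p = 0.0286) and 0.33 with TCE-5002 (adjusted p = 0.0129), its fall with the combination -0.81 (adjusted p = 2.14e-06) and its interaction -1.43 (adjusted p = 5.61e-08). KDM1A (50.8% GC) hardly moved, at 0.68 with namoline, 0.41 with TCE-5002 and -1.09 for the interaction. For ZMYM2 (36.8% GC) the corrected values were -0.28 with namoline, 0.61 with the combination and 0.70 for the interaction, all still called, and for RCOR3 (36.2% GC) the interaction became 0.48 (adjusted p = 0.00192). HDAC2 was called with all 3 treatments after the correction (0.47, 0.26 and 0.28, adjusted p = 0.00012, 0.016 and 0.00687), its interaction also (-0.44, adjusted p = 0.00284), and RCOR2 with namoline (-0.98, adjusted p = 0.0438). RCOR2 in the combination against TCE-5002 was no longer called (-0.82, adjusted p = 0.0553). Under TCE-5002 the number of genes called rose from 3 to 6 with it, adding KDM1B (0.38), HDAC1 (0.26) and HDAC2.

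**Figure D4:**
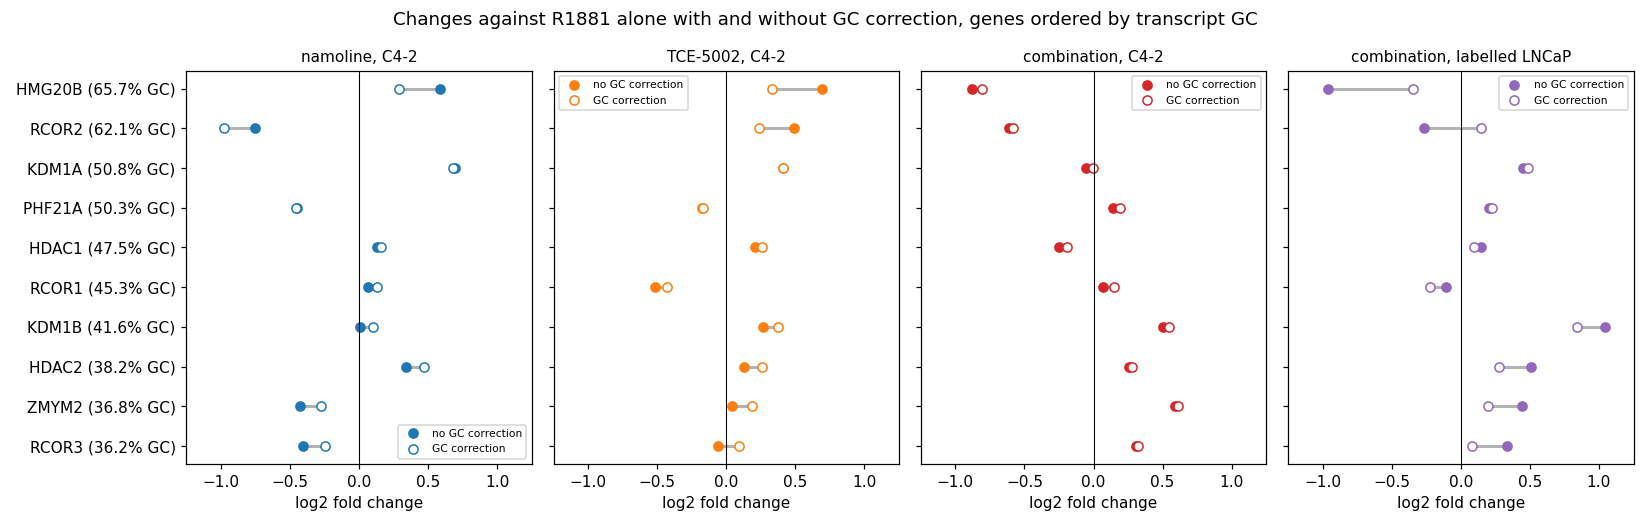
Log2 fold change against R1881 alone (x axes) without (filled) and with (open) a GC correction, for the 10 genes ordered by transcript GC (y axis), in the 4 comparisons. HMG20B, at 65.7% GC, moves from -0.96 to -0.35 in the libraries labelled LNCaP, while KDM1A, at 50.8%, stays near its uncorrected value in each panel.

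The cells labelled LNCaP differed from C4-2 already with R1881 alone. Fitted on the 8 libraries with R1881 or the combination (19763 genes), 8 of the 10 genes were called, 3 higher and 5 lower in C4-2, where 76.8% of all genes were (37.8% higher, 39% lower). Past 2-fold were 2 (ZMYM2 and RCOR2), against 50.5% of all genes. ZMYM2 was higher in C4-2 by 1.62 (SE 0.09, adjusted p = 4.32e-14), from 71.5 and 73.2 CPM in the libraries labelled LNCaP. KDM1B (33.8 and 35.2 CPM there) and RCOR1 (53.0 and 52.6 CPM there) were also higher in C4-2, by 0.87 (SE 0.09, adjusted p = 9.66e-09) and 0.57 (SE 0.09, adjusted p = 3.49e-06). RCOR2 was the gene most biased to the libraries labelled LNCaP, at 10.6 and 10.6 CPM (223 and 231 counts), with a C4-2 difference of -2.49 (SE 0.25, adjusted p = 4.21e-09), and it held 18.3% and 18.2% of the summed scaffold transcripts per kb there.

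KDM1A (121 and 111 CPM) and HDAC2 (223 and 234 CPM) were likewise higher in the libraries labelled LNCaP, with C4-2 differences of -0.59 (SE 0.09, adjusted p = 2.09e-06) and -0.76 (SE 0.08, adjusted p = 1.06e-08). The ratio of KDM1A to KDM1B per kb was 3.03 and 2.67 there, above every C4-2 library. HDAC1 (-0.19, adjusted p = 0.0367) and HMG20B (-0.29, adjusted p = 0.0165) were lower in C4-2 by small amounts. The HDAC1 call was lost without any 1 of the 4 C4-2 libraries of the fit (adjusted p = 0.052 to 0.176), and that of HMG20B without either C4-2 R1881 library (adjusted p = 0.0516 and 0.0685) or R1881 replicate 1 labelled LNCaP (adjusted p = 0.119). RCOR3 (0.15, adjusted p = 0.104) and PHF21A (-0.19, adjusted p = 0.0836) were not called, though PHF21A was without R1881 replicate 1 labelled LNCaP (-0.34, adjusted p = 0.0125), with RLE scaling (-0.24, adjusted p = 0.0312) and with the GC correction (-0.25, adjusted p = 0.0137). HMG20B was not called with the GC correction (-0.18, adjusted p = 0.0617).

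In the libraries labelled LNCaP the combination changed 6 of the 10 genes over 17565 genes tested, where 56.2% of all genes were called (28% higher, 28.2% lower). KDM1A, KDM1B, RCOR3, HDAC2 and ZMYM2 were higher and HMG20B lower. KDM1B rose, from 33.8 and 35.2 to 66.8 and 69.8 CPM (1.04, SE 0.11, adjusted p = 2.11e-09), and was the only 1 of the 10 past 2-fold, against 18.7% of all genes. KDM1A rose from 121 and 111 to 140 and 164 CPM (0.45, SE 0.11, adjusted p = 0.000509). HMG20B fell from 125 and 109 to 64.3 and 51.1 CPM (-0.96, SE 0.12, adjusted p = 1.57e-08), a direction it shared with C4-2, and the correction for GC reduced that to -0.35 (adjusted p = 0.00135). MFSD12, which overlaps it, was at 55.2 and 47.4 CPM before and at 47.4 and 37.2 after.

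HDAC2 rose from 223 and 234 to 301 and 321 CPM (0.51, SE 0.10, adjusted p = 0.000103; 0.27 with the GC correction) and ZMYM2 from 71.5 and 73.2 to 89.4 and 99.5 (0.45, SE 0.11, adjusted p = 0.000521; 0.20 with it). RCOR3 moved from 79.3 and 80.6 to 91.4 and 102 CPM (0.33, SE 0.10, adjusted p = 0.00702), a call lost with the GC correction (0.08, adjusted p = 0.405) and without R1881 replicate 1 (adjusted p = 0.0944) or replicate 2 (adjusted p = 0.0505). HDAC1 (314 and 310, then 314 and 349 CPM), RCOR1 (53.0 and 52.6, then 47.4 and 46.7) and PHF21A (64.2 and 75.0, then 78.2 and 75.4) were not called (0.15, -0.10 and 0.20, adjusted p = 0.232, 0.444 and 0.116), but with the GC correction RCOR1 (-0.22, adjusted p = 0.0401) and PHF21A (0.23, adjusted p = 0.0366) were. RCOR2 was at 10.3 and 6.66 CPM after the combination (-0.26, adjusted p = 0.251).

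Without combination replicate 1, whose header names namoline only, KDM1A (0.54), KDM1B (1.06), RCOR3 (0.39), HDAC2 (0.54), HMG20B (-1.15) and ZMYM2 (0.51) were all still called (adjusted p = 0.00115 or below). RCOR2 was then called as well (-0.62, adjusted p = 0.0089), and 2 genes were past 2-fold. That count was also 2 without R1881 replicate 2 and 0 without R1881 replicate 1. HDAC1 (0.21, adjusted p = 0.107), RCOR1 (-0.13, adjusted p = 0.379) and PHF21A (0.16, adjusted p = 0.236) were still not called. With combination replicate 1 kept and replicate 2 left out, RCOR2 was at 0.04 (adjusted p = 0.896).

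Whether the combination acted differently in the 2 sets of cells was tested as the difference between their changes, where 47.6% of all genes were called (21.7% higher, 25.9% lower) and the median over all genes was -0.10. In C4-2 the response was lower for 4 of the 10 genes and higher for none, and 0 differed by 2-fold, against 25.3% of all genes. For KDM1A the difference was -0.55 (SE 0.13, adjusted p = 0.000808; -0.67 without the library whose header names namoline only), and for KDM1B -0.59 (SE 0.13, adjusted p = 0.000505; -0.63 without it). The GC correction reduced the KDM1B difference to -0.33 (adjusted p = 0.0177). For HDAC1 it was -0.45 (SE 0.12, adjusted p = 0.00267; -0.53 without it and -0.29, adjusted p = 0.0258, with the GC correction), where neither set of cells gave a call of its own. The difference for HDAC2, -0.30 (SE 0.11, adjusted p = 0.0344; -0.35 without that library), was lost in 13 of 14 alternatives, among them the GC correction (-0.03, adjusted p = 0.866) and leaving out R1881 replicate 1 labelled LNCaP (-0.15, adjusted p = 0.36), its replicate 2 (adjusted p = 0.142), the other combination library labelled LNCaP (0.0744) or any 1 of the C4-2 libraries (0.0731 to 0.126).

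HMG20B and ZMYM2 did not differ beyond their error between the 2 sets of cells (0.03 ± 0.15 and 0.09 ± 0.12, SE, adjusted p = 0.921 and 0.57). With the GC correction both differed, HMG20B by -0.44 (adjusted p = 0.00483) and ZMYM2 by 0.36 (adjusted p = 0.00536), so whether their responses were alike depends on that choice. RCOR1, RCOR2, RCOR3 and PHF21A had differences of 0.12, -0.41, -0.08 and -0.11, none called (adjusted p = 0.441 to 0.618), and RCOR1 was called with the GC correction (0.35, adjusted p = 0.0121). Without the library whose header names namoline only, the differences of RCOR1, RCOR2, RCOR3, PHF21A, HMG20B and ZMYM2 were 0.12, -0.08, -0.16, -0.09, 0.19 and 0.01, none called (adjusted p = 0.292 to 0.992).

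Other proteins known to bind KDM1A or CoREST were counted as a group (11 genes, 9 tested in C4-2). Over all genes, 35% were called with namoline, 36.5% with TCE-5002, 50.3% with the combination and 56.2% when the cells labelled LNCaP received it. Namoline left 1 of the 9 lower and 0 higher (median -0.13, against -0.0043 over all genes), and the combination 2 higher and 4 lower (median -0.25, against -0.034). With TCE-5002 1 was higher and 4 lower (median -0.48, against -0.0001), and in the libraries labelled LNCaP 2 of 11 were higher and 3 lower (median -0.14). GSE1, a CoREST-associated protein, was at 343 and 333 CPM with R1881 alone and at 171 and 174 with the combination (-0.98, SE 0.11, adjusted p = 7.28e-06), with 255 and 268 under namoline alone (-0.39, adjusted p = 0.0136). SFMBT1, a reader of histone marks found with KDM1A, rose with the combination by 0.68 (SE 0.13, adjusted p = 0.000515). CTBP1 and ZNF217, corepressors that join KDM1A complexes, fell with the combination (-0.62 and -0.46, adjusted p = 0.00302 and 0.00447) and were not called with namoline (0.10 and 0.06, adjusted p = 0.649 and 0.732). ZMYM3, a relative of ZMYM2, was not called with either (-0.13 and -0.17, adjusted p = 0.439 and 0.269).

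REST, which recruits RCOR1 to neuronal genes, fell with namoline (-0.35, adjusted p = 0.0432) and with the combination (-0.45, SE 0.13, adjusted p = 0.00851), from 99.7 and 82.6 to 74.5 and 70.6 and to 69.3 and 65.3 CPM. With TCE-5002 alone REST was at 74.4 and 62.1 CPM. In the libraries labelled LNCaP it was at 105 and 107 CPM with R1881 and at 80.45 and 85.3 with the combination. Of 10 recruiting factors with SNAG or similar domains, 5 were tested, with 1 higher and 1 lower under namoline and 0 higher and 1 lower under the combination (medians 0.65 and -0.14). TCE-5002 left 0 higher and 1 lower, and in the libraries labelled LNCaP 1 of 7 was higher and 4 lower (medians 0.27 and -0.54). Of 20 neuronal genes that REST represses, 7 passed the filter on low counts in C4-2. Among these, 3 were higher and 0 lower with namoline (median 0.35), and 1 was higher and 2 lower with the combination (median -0.58), where 35% and 50.3% of all genes were called with medians of -0.0043 and -0.034. TCE-5002 left 3 higher and 1 lower (median 0.48), and in the libraries labelled LNCaP 1 of 17 was higher and 4 lower (median -0.23). With R1881 alone, 14 of 16 neuronal genes tested were lower in C4-2 than in the libraries labelled LNCaP and 2 higher (median -4.56). Over all genes 39% were lower and 37.8% higher. GRIN1, a glutamate receptor subunit, rose with namoline from a mean of 6.32 to 18.5 CPM (1.54, SE 0.25, adjusted p = 0.000341). Its mean was 16.45 CPM with TCE-5002 and 4.23 with the combination in C4-2.

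The complexes that share HDAC1 and HDAC2 with CoREST were counted in the same way, beside the same shares of all genes (35% with namoline, 36.5% with TCE-5002, 50.3% with the combination, 56.2% labelled LNCaP). Of 13 NuRD subunits, 5 were higher and 2 lower with namoline (median 0.31) and 2 higher and 6 lower with the combination (median -0.40), 3 higher and 2 lower with TCE-5002 (median 0.18), and 3 higher and 4 lower in the libraries labelled LNCaP (median 0.10). In C4-2, MTA2 rose with namoline and with the combination (0.69 and 0.58, adjusted p = 0.000219 and 0.000494). GATAD2B fell there with namoline (-0.55, adjusted p = 0.0011) and CDK2AP1 with the combination (-0.97, adjusted p = 1.28e-05). In the libraries labelled LNCaP the means with R1881 and with the combination were 224 and 164 CPM for MTA2 and 67.4 and 41.3 for CDK2AP1. For GATAD2B they were 110.3 and 154.1 CPM. Of 13 SIN3 complex genes, 0 were higher and 2 lower with namoline (median 0.01), and 5 higher and 1 lower with the combination (median 0.21). TCE-5002 left 0 higher and 1 lower (median -0.01), and in the libraries labelled LNCaP 2 were higher and 5 lower (median -0.15). SAP30L fell with namoline (-0.48, adjusted p = 0.0322), while BRMS1 rose (0.71, adjusted p = 0.00018) and SAP30 fell (-0.51, adjusted p = 0.0218) with the combination. In the NCoR complex, built around HDAC3, 1 of 7 genes was higher and 2 lower with namoline (median 0.05) and 0 higher and 2 lower with the combination (median -0.02), 1 higher and 2 lower with TCE-5002 (median 0.05), and 1 higher and 1 lower in the libraries labelled LNCaP (median -0.24). In C4-2 its TBL1X fell with namoline and with the combination (-0.78 and -1.24, adjusted p = 5.01e-05 and 5.52e-07), and CORO2A rose with namoline (0.55, adjusted p = 0.00127). Mean CORO2A went from 70.07 CPM in the C4-2 controls to 103.8 under namoline. Under TCE-5002 it stood at 91.32 CPM, but both inhibitors together left it at 36.45, below the controls.

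Among 9571 other protein-coding genes with at least 10 CPM on average, those whose log2 CPM followed KDM1A most closely over the 8 C4-2 libraries were FBXO21, UBE3C, STARD7, SKP2 and NOP56 (Pearson r 0.994, 0.991, 0.990, 0.986 and 0.984). All 5 were highest with namoline, next with TCE-5002 and lowest with the combination, an order that largely follows from picking them by likeness to KDM1A. SKP2, for example, had mean levels of 31.3, 56.6, 45.1 and 28.1 CPM with R1881 alone, namoline, TCE-5002 and the combination. Within the complex, HDAC1 (r = 0.786) and HMG20B (r = 0.757) were the nearest to KDM1A and PHF21A (r = -0.896) and RCOR3 (r = -0.838) the most opposed. HDAC1 and HMG20B ranked only 1342 and 1604 from the top of the 9571 genes, so many genes outside the complex lay nearer. RCOR2, below 10 CPM in C4-2, was not compared. These values describe 8 libraries in 4 groups, share library depth and GC differences, and carry no test.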

How the data were processed

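Polyadenylated RNA of 12 libraries was sequenced in paired ends. The authors trimmed adapters with Trim Galore, aligned reads to GRCh38 with STAR and, per the file headers, deposited whole fragment counts per gene from featureCounts 1.5.0-p1 with Ensembl release 83 and no strand option. Groups came from the library titles; a treatment protocol field describes siRNA work that does not match them.

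Libraries were scaled by TMM, genes filtered with filterByExpr, and contrasts tested two-sided by edgeR's quasi-likelihood F test, with p-values adjusted by Benjamini-Hochberg across every gene in the fit. Versions were R 4.3.3, edgeR 4.0.16 and limma 3.58.1. C4-2 contrasts used the 8 C4-2 libraries, the contrast labelled LNCaP its 4, and contrasts between lines the 8 with R1881 or combination. The interaction was the combination's log2 change less those of both single inhibitors. CPM used TMM factors over all 12 libraries, given as mean ± SD. Per-kb levels divide by deposited exonic length. The GC correction used offsets from a lowess fit (span 0.3) on GENCODE 29 transcript GC, known for 56996 of 60675 genes. Symbols were matched for 56558 genes. Steps were tested on simulated counts.

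The 10 genes and all gene lists were chosen with earlier results of these data known. Named were the 10 genes, REST, GLYR1, ZMYM3, GSE1, CTBP1 and ZNF217 whatever their values, the strongest riser and faller of each list at adjusted p under 0.05 with at least 10 CPM in the higher group in the C4-2 namoline and combination contrasts, and the 5 genes most like KDM1A. MFSD12, HDAC1P1, HDAC1P2 and HDAC2-AS2 were named for sharing sequence with a member. The alternatives were RLE scaling, no filter, DESeq2 1.42.0, a replicate block, a GC correction with and without the block, leaving out each library, and fitting only the 4 libraries compared. Alignments and splicing were not analysed here, and 1 gene the naming rule covers is not reported here.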

Additional observations from a re-analysis of the deposited data

Results flagged for a closer look

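The change with the combination differed between C4-2 and the libraries labelled LNCaP for 4 of the 10 genes, by edgeR's quasi-likelihood test of the difference itself, where 47.6% of all genes differed. For KDM1A the difference was -0.55 (adjusted p = 0.000808), where C4-2 changed by -0.05 and the cells labelled LNCaP by 0.45. KDM1B differed by -0.59 (adjusted p = 0.000505), rising in both sets of cells, by 0.50 in C4-2 and 1.04 in the other. For HDAC1 the difference was -0.45 (adjusted p = 0.00267), between changes of -0.25 and 0.15 that were not called themselves. HDAC2 differed by -0.30 (adjusted p = 0.0344), between 0.26, not called, and 0.51, but this call held in only 1 of 14 alternatives and the value was -0.03 with the GC correction (adjusted p = 0.866). The changes within each set come from separate fits, so their subtraction does not return the difference exactly. The cause of these differences was not tested, and line, cell identity and the doubt about 1 combination library labelled LNCaP cannot be told apart here.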

How the results depend on the processing

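Of 90 values for the 10 genes, 52 were called, and 33 of these kept call and direction under every alternative run for them; no called value changed sign. The cause of the changes below was not tested. With the GC correction, with and without the replicate block, 6 members were called with TCE-5002 (3 without it), the count past 2-fold fell to 1 and 1 for the combination against namoline, to 1 and 1 against TCE-5002 (also 1 with DESeq2), and to 0 and 0 for the combination labelled LNCaP. Leaving out 1 library, members called ran from 1 to 6 for namoline, 1 to 6 for TCE-5002, 2 to 6 for the combination, and 5 to 10 for the combination against TCE-5002. The same gave 1 to 2 past 2-fold against namoline and against TCE-5002, and 0 to 2 labelled LNCaP.

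No value that changed sign was called with all libraries. HMG20B in the difference between the lines was at 0.03 and then -0.44 with the GC correction and -0.44 with the block as well (-0.15 to 0.23 leaving out 1 library). KDM1B with namoline was -0.0082 with RLE, -0.0009 with DESeq2, -0.0064 on 4 libraries and -0.0801 to 0.0795 leaving out 1. RCOR1 in the combination against namoline was 0.0409 with RLE, 0.0162 with the GC correction and 0.0161 with the block as well, 0.0328 with DESeq2, 0.0261 on 4 libraries and -0.0127 to 0.0179 leaving out 1. Under the GC correction, without and with the block, RCOR3 with TCE-5002 was 0.0932 and 0.0907, the RCOR2 interaction 0.16 and 0.15, RCOR2 labelled LNCaP 0.15 and 0.14 and the RCOR3 line difference 0.19 and 0.19. Leaving out 1 library gave -0.0892 to 0.16 for ZMYM2 and -0.12 to 0.34 for HDAC2 with TCE-5002, -0.21 to 0.47 for RCOR2 in the combination against namoline, -0.0777 to 0.38 for HDAC2 against TCE-5002, -0.42 to 0.0597 for the HDAC2 interaction, -0.62 to 0.0369 for RCOR2 labelled LNCaP, and -0.16 to 0.0448 for RCOR3 and -0.20 to 0.11 for PHF21A in the line difference.

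Samples with the same replicate number did not deviate together in every pair (r = -0.018 to 0.37 within C4-2, 0.077 labelled LNCaP), so the numbers were not taken to pair them. With the replicate block 87 of 90 values kept their call, while HDAC2 with namoline (0.34, adjusted p = 0.0229) and HDAC1 with the combination (-0.25, adjusted p = 0.0499) gained one and the HDAC2 line difference (-0.30, adjusted p = 0.0521) lost it. With the block and GC correction together ZMYM2 labelled LNCaP was not called (0.20, adjusted p = 0.0695). Genes called over all genes fell from 6195 to 3270 for namoline without R1881 replicate 1 and to 3338 without namoline replicate 2, and for TCE-5002 from 6464 to 3397 and 4213 without R1881 replicates 1 and 2. RLE scaling moved member levels by -1.57% to 3.15%. With 2 libraries per group, the error of each gene rests largely on the spread shared across genes, and RCOR2 in C4-2 rests on 16 to 49 counts.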
